A study of Rattus norvegicus with 48 samples.

Results

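Hepatic stellate cells and other mesenchymal cells of the rat liver were followed through 10 marker genes in livers that had gone through ischemia and reperfusion, with or without conditioning. The genes were Pdgfra, Pdgfrb, Col1a1, Col1a2, Col3a1, Dcn, Vim, Des, Reln and Lrat. A gene was taken where a probe set carried its symbol, or an alias of it, as the only symbol in the platform annotation, and the probe set of highest mean over the arrays stood for it. All 10 genes were found, each with 1 such probe set, among 14506 genes with a probe set of this kind and 29215 probe sets in all. The choice of probe set used no difference between groups, while the genes were listed with earlier results of these data known.

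Liver biopsies from 48 male Wistar rats of 300 to 350 g were profiled on Affymetrix arrays, 1 array for each animal. All groups shared the anaesthesia (fentanyl with fluanisone, and midazolam), the laparotomy, and a biopsy of the right lobe frozen at once. The sham group (8 rats) had no ischemia. The group called IRI (10 rats) had 30 min of ischemia of the whole liver and 30 min of reperfusion. The group called IPC (10 rats) had the same insult preceded by 10 min of ischemia and 10 min of reperfusion, which is ischemic preconditioning. The group called IPO (10 rats) had it with blood flow restored at first in 3 bursts of 30 sec, each closed by 30 sec without flow, which is ischemic postconditioning. The group called IPC+IPO (10 rats) had both. Conditioned livers thus differ from sham by the insult and the conditioning together. The animals were separate rats, and their number limits the precision of each value.

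Stellate cells lie between the sinusoidal endothelium and the hepatocytes, store the vitamin A of the body as retinyl esters, and are the main source of fibrillar collagen when the liver scars. In injury they lose their retinoid, take up a contractile phenotype and proliferate in answer to platelet-derived growth factor (PDGF), while transforming growth factor beta drives their matrix genes. Fibroblasts of the portal tracts, vascular smooth muscle and mesothelium share many of these genes. A biopsy holds all of these cells, so fewer cells of a type and less RNA per cell cannot be told apart here.

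Values are log2 expression values, so that a difference of 1 is a doubling. A call is an adjusted p under 0.05 from limma over all 14506 genes. Hepatocyte markers stood where liver tissue puts them, from Hnf4a, above 94.7% of genes, to Alb, above 99.99%. The 10 stellate and mesenchymal genes lay in the middle and upper part of the range, from Des, whose mean of 5.7 was above 46% of genes, to Col3a1, whose mean of 8.20 was above 88% of genes. These places describe where a probe set sits on the array and do not rank the genes by abundance. No detection calls were used, so a low value is not a sign of absence.

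Arrays differed in their spread, which is the SD that all 14506 genes give within 1 array. Sham arrays had a mean spread of 1.72 ± 0.134 (SD, n = 8) and IRI arrays of 1.77 ± 0.111 (SD, n = 10). The conditioned groups had 1.85 ± 0.0827 (IPC), 1.91 ± 0.0650 (IPO) and 1.86 ± 0.153 (IPC+IPO). The lowest were 1.5 in IPC+IPO animal 38 and 1.54 in IRI animal 7, and both arrays return below as the lowest values of some markers. The cause of the differences in spread was not tested, and calls are therefore set beside the fit with spread as a covariate.

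Promoter sequence is shown for Pdgfra, Col1a2 and Lrat, since each was called in at least 1 comparison, as deposited or with spread as a covariate. Pdgfra correlated from rat to rat with Col1a2 (r = 0.65) and less with Lrat (r = 0.37), and Lrat with Col1a2 did not (r = 0.02). The windows come from RefSeq on GRCr8 and reach from 250 bases before to 50 bases after the table's start site, written 5′ to 3′ on the gene's strand. The table held such a window for 6 of the 10 genes and held none for Pdgfrb, which was also called. Capitals mark 3 short motifs on either strand, none of which overlaps another here. The first is the CCAAT box, which appears as ATTGG when it lies on the other strand. The second is the GGGCGG box, which then appears as CCGCCC. The third is the TATAAA box.
Pdgfra promoter, chr14:33408467-33408766, minus strand: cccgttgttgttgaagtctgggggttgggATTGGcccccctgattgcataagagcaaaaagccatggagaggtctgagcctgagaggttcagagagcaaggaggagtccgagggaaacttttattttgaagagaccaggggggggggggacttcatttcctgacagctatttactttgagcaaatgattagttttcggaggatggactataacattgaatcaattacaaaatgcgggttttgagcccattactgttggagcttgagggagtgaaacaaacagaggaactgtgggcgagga
Col1a2 promoter, chr4:33518307-33518606, plus strand: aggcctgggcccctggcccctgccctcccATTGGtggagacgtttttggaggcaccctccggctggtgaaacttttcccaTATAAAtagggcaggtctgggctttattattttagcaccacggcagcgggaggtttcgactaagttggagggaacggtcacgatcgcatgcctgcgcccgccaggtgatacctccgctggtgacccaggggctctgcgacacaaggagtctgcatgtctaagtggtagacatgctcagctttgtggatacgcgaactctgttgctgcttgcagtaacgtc
Lrat promoter, chr2:170571163-170571462, minus strand: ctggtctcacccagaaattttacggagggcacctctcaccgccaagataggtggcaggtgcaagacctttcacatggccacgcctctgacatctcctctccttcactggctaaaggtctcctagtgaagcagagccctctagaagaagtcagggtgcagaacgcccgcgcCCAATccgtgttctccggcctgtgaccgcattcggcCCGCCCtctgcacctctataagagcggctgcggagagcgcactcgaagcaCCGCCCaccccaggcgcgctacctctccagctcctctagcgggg
CCAAT was found in all 3 windows, which 37.5% of 33469 windows of 300 bases hold. In Pdgfra and Col1a2 it lay on the opposite strand and began 221 bases before the table's start site, and in Lrat it lay on the gene's strand 80 bases before it. TATAAA, held by 14.2% of windows, was found in Col1a2, 170 bases before the start site, and GGGCGG, held by 33.1%, was found at 2 places in Lrat. The windows not shown were those of Vim, which held all 3 motifs, and of Des and Reln, which held GGGCGG but neither CCAAT nor TATAAA. The 3 windows shown were picked by their calls, so they are no sample to set against these percentages. A match describes letters only.

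Pdgfra encodes the PDGF receptor alpha chain, a surface receptor of stellate cells and fibroblasts that binds most PDGF forms. It is on GRCr8 chromosome 14 from 33360027 to 33408604 (probe set 10776459). In sham, Pdgfra ran from 6.10 to 6.86 with a median of 6.58. In IRI it ran from 5.77 to 6.30 with a median of 6.11. In IPC the lowest, median and highest values were 6.09, 6.28 and 6.52. In IPO they were 5.98, 6.41 and 6.55, and in IPC+IPO 5.83, 6.44 and 6.56. The sham livers were the highest and the IRI livers the lowest, and 5 of the 10 IRI animals lay below every sham animal. The mean was 6.55 ± 0.28 (SD, n = 8) in sham and 6.09 ± 0.19 (SD, n = 10) in IRI.

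Pdgfra fell after ischemia and reperfusion. The difference of IRI from sham was -0.46 ± 0.10 (SE; 95% interval -0.66 to -0.26), 1.38-fold lower, with a limma adjusted p of 0.0374. It was the single member called among 10, where 0.241% of all genes were called (35 genes, 10 of them lower). Array spread as a covariate gave -0.49 ± 0.09 (adjusted p = 0.00210). Over 9 other settings the difference stayed between -0.55 and -0.32 with adjusted p from 0.00195 to 0.264. The call was absent with only these groups in the fit (0.262), with arrays centred on their medians (0.0890) and without the 14 arrays of lowest spread (0.264), which leaves 2 sham and 6 IRI arrays. With 1 array left out, the call held in 10 of 18 fits and was lost without IRI animal 3, 6 or 9 or sham animal 42, 44, 45, 46 or 47. The adjusted p then ran from 0.00262, without sham animal 48, to 0.0961.

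Conditioned livers lay between these groups for Pdgfra. IPC differed from sham by -0.27 ± 0.10 (adjusted p = 0.0945; range over 9 settings 0.0128 to 0.626), IPO by -0.22 ± 0.10 (0.0893) and IPC+IPO by -0.17 ± 0.10 (0.291). IPC differed from sham, given spread as a covariate, by -0.35 ± 0.10 (adjusted p = 0.0442), a call where 1.9% of all genes were called. Without sham animal 48, Pdgfra was also called against sham in IPC (adjusted p = 0.0226) and in IPO (0.0243). From IRI the differences were 0.20 ± 0.09 for IPC, 0.24 ± 0.09 for IPO and 0.29 ± 0.09 for IPC+IPO (adjusted p = 0.245, 0.0550 and 0.107), and the IPO value was called without IRI animal 1 or 4 or IPO animal 25 or 30. Leaving out IRI animal 1 raised the calls over all genes in IPO against IRI from 3307 to 5345. In order of the means, from sham through IPC+IPO, IPO and IPC to IRI, no 2 neighbours differed by a called amount.

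**Figure D1:**
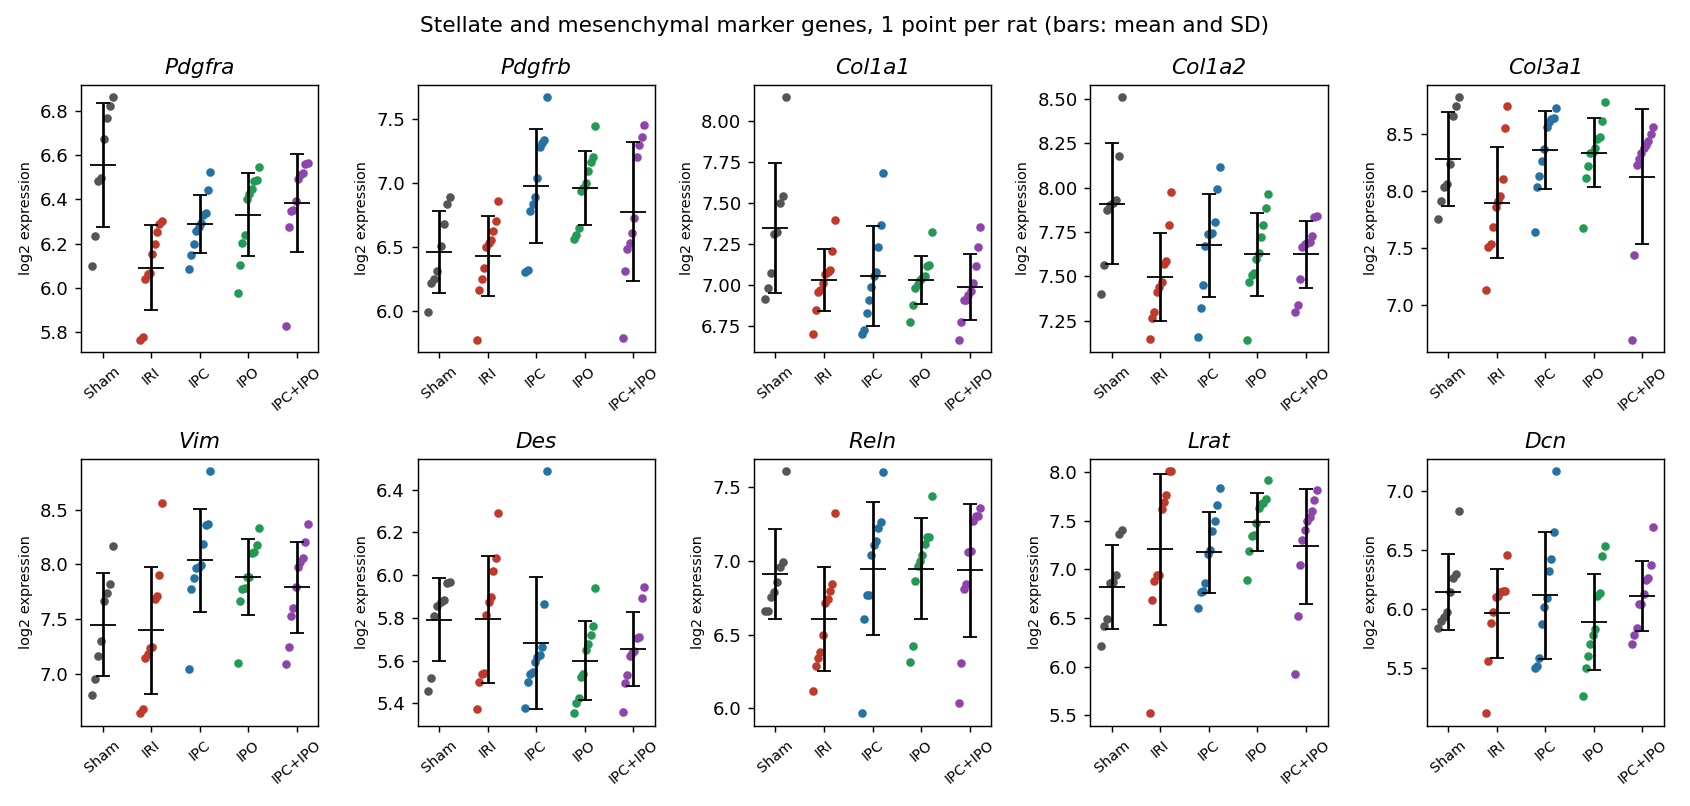
Log2 expression of the 10 marker genes (y axis) in the 5 groups (x axis), 1 point for each rat, with the mean and SD as bars; the y axes differ between panels. Pdgfra is lowest in the IRI livers, 5 of which lie below all sham livers. For Pdgfrb, 7 of 10 IPO livers and 6 of 10 IPC livers lie above all IRI livers.

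Pdgfrb encodes the PDGF receptor beta chain, which answers to PDGF-BB and is the receptor that classically marks stellate cells and pericytes. It is on GRCr8 chromosome 18 from 56770348 to 56809228 (probe set 10802040). In sham, Pdgfrb ran from 6.0 to 6.89 with a median of 6.41. In IRI it ran from 5.78 to 6.86 with a median of 6.51, and the groups overlapped over nearly their whole range. In IPC the lowest, median and highest values were 6.31, 6.97 and 7.67. In IPO they were 6.56, 6.98 and 7.44, and in IPC+IPO 5.79, 6.67 and 7.46. The conditioned groups were thus higher at the median than sham and IRI, and 7 of 10 IPO animals lay above every IRI animal and 7 above every sham animal.

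Pdgfrb was called higher in postconditioned livers, though preconditioned livers lay as high. The difference of IPO from IRI was 0.53 ± 0.17 (SE; 95% interval 0.19 to 0.87), 1.45-fold, with a limma adjusted p of 0.0277. It was 1 call among the 10 genes, where 22.8% of all genes were called, so the share of markers called was below the background. Given spread as a covariate it was 0.30 ± 0.16 and not called (adjusted p = 0.552), and 0.0138% of all genes were. The adjusted p ran from 0.00181 to 0.552 over 9 settings, and the call was also absent with renewed quantile normalization (0.0687) and with the 14 low-spread arrays dropped (0.131). Of the fits without 1 array, 16 of 20 kept the call, which was lost without IRI animal 7, 8 or 9 or IPO animal 26. Against sham the rise in IPO was 0.50 ± 0.18 (adjusted p = 0.0401; with spread as a covariate 0.19 ± 0.18, adjusted p = 0.764), and it was not called with renewed quantile normalization (0.153) or without the 14 arrays (1). That call held in 6 of 18 fits without 1 array, and it was lost without IPO animal 21, 22, 23, 26, 27, 28 or 29 or sham animal 41, 42, 44, 45 or 46.

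In the other groups Pdgfrb was not called. It differed from IRI by 0.55 ± 0.17 in IPC (adjusted p = 0.158) and by 0.35 ± 0.17 in IPC+IPO (adjusted p = 0.227). From sham it differed by 0.52 ± 0.18 in IPC (adjusted p = 0.0720) and by 0.32 ± 0.18 in IPC+IPO (adjusted p = 0.281). The IPC value against sham was called without IPC animal 17 or 19 or sham animal 43 or 48, with an adjusted p as low as 0.0279. Against IRI the unadjusted limma p was 0.00235 in IPC and 0.00304 in IPO. IPO and IPC differed by -0.02 ± 0.17, so the call in IPO does not set IPO apart from IPC. IRI and sham differed by -0.03 ± 0.18. The receptors therefore have different values in the comparison of IRI with sham, -0.46 for Pdgfra and -0.03 for Pdgfrb, though the difference between the genes was not tested.

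Col1a1 and Col1a2 encode the chains of type I collagen, the main fibrillar collagen of scar, and Col3a1 encodes type III collagen, which forms the reticulin fibres of the liver. Col1a1 lies on GRCr8 chromosome 10 from 80380458 to 80397461 (probe set 10737532), Col1a2 on chromosome 4 from 33518557 to 33553484 (probe set 10853559) and Col3a1 on chromosome 9 from 54866646 to 54902578 (probe set 10923052). Col1a2 ran from 7.40 to 8.51 in sham, with a median of 7.91, and from 7.15 to 7.98 in IRI, with a median of 7.46. Its lowest, median and highest values were 7.16, 7.74 and 8.12 in IPC. They were 7.14, 7.61 and 7.97 in IPO and 7.30, 7.69 and 7.84 with both interventions. Every ischemic group was lower than sham at the median, with overlap in each case, and 3 of 10 IRI animals lay below all sham animals.

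The difference of IRI from sham in Col1a2 was -0.41 ± 0.12 (SE; 95% interval -0.66 to -0.16), 1.33-fold lower, and was not called (limma adjusted p = 0.121). It was called with spread as a covariate (-0.42 ± 0.12, adjusted p = 0.0327), where 5.89% of all genes and 2 of the 10 markers, Pdgfra and Col1a2, were called. It was also called without sham animal 48 (adjusted p = 0.0252), while over 9 settings the adjusted p ran from 0.0264 to 0.824 and the difference from -0.52 to -0.10. In IPC, IPO and IPC+IPO, Col1a2 differed from sham by -0.24, -0.29 and -0.28, each ± 0.12, with adjusted p of 0.239, 0.0804 and 0.153. The last 2 were called without sham animal 48, with adjusted p of 0.0255 and 0.0491.

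Col1a1 ran from 6.91 to 8.15 in sham, with a median of 7.32, and from 6.70 to 7.39 in IRI, with a median of 7.04. Its medians in the conditioned livers were 7.02 (IPC), 7.04 (IPO) and 6.95 (IPC+IPO). The highest sham value, 8.15 in animal 47, was above every other array for this gene. Against sham, Col1a1 differed by -0.32 in IRI (adjusted p = 0.260), by -0.29 in IPC (0.131), by -0.32 in IPO (0.0514) and by -0.36 in IPC+IPO (0.0714), each with an SE of 0.12 and none called. These 4 differences share the same sham livers. Without sham animal 47 they were -0.20, -0.18, -0.20 and -0.25. The value in IPO was called without sham animal 41, 42, 43 or 48 or IPO animal 28 or 30, and that in IPC+IPO without sham animal 43 or 48 or IPC+IPO animal 37 or 38. Between IRI and any conditioned group Col1a1 differed by no more than 0.05 in size.

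Col3a1 ran from 7.75 to 8.82 in sham and from 7.13 to 8.75 in IRI, with medians of 8.15 and 7.88, and from 6.69 to 8.78 over the conditioned livers. The lowest value, 6.69, was that of IPC+IPO animal 38. IRI differed from sham by -0.38 ± 0.20 (adjusted p = 0.472). IPC and IPO differed from IRI by 0.46 ± 0.19 and 0.44 ± 0.19 (adjusted p = 0.203 and 0.0736), and with spread as a covariate by 0.31 and 0.18. The IPO value was called without IRI animal 1 or IPO animal 25. Without IRI animal 1 it was 1 of 5345 genes called there, beside 3307 genes with all arrays. Dcn, on chromosome 7 from 34167973 to 34208004 (probe set 10895075), encodes decorin, a small proteoglycan that binds collagen fibrils. It ran from 5.11 to 7.17 over the 48 livers, and its differences in the comparisons of ischemic livers with sham and of conditioned livers with IRI ran from -0.26 to 0.15, none called.

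Vim encodes vimentin, the intermediate filament of mesenchymal cells, which endothelial cells and leukocytes also carry, and Des encodes desmin, the muscle-type filament by which rat stellate cells were long identified. Vim lies on GRCr8 chromosome 17 from 81577261 to 81585746 (probe set 10796445) and Des on chromosome 9 from 84299626 to 84307344 (probe set 10924507). Vim ran from 6.80 to 8.16 in sham, with a median of 7.48, and from 6.63 to 8.56 in IRI, with a median of 7.24. Its lowest, median and highest values were 7.04, 7.98 and 8.86 in IPC. They were 7.09, 7.88 and 8.33 in IPO and 7.09, 7.88 and 8.37 with both interventions. All groups overlapped, with the conditioned livers higher at the median.

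Vim differed between IPC and IRI by 0.64 ± 0.20 (SE; 95% interval 0.24 to 1.04), 1.56-fold, but was not called (limma adjusted p = 0.158; range over 9 settings 0.0350 to 0.508). In that comparison none of the 10 markers was called, and 0.0276% of all genes were. Without IRI animal 1, the highest IRI value, Vim was called at 0.77 (adjusted p = 0.0352), as 1 of 252 genes. Between IPO and IRI it differed by 0.49 ± 0.20 (adjusted p = 0.0632). It was called there without IRI animal 1, as 1 of 5345 genes, and without IRI animal 4 or IPO animal 25. The differences of IPC and IPO from IRI were, given spread as a covariate, 0.48 ± 0.18 and 0.20 ± 0.19. Against sham Vim differed by 0.59 ± 0.21 in IPC (adjusted p = 0.0779), called without IPC animal 17 or sham animal 43 or 48, by 0.43 ± 0.21 in IPO (adjusted p = 0.115), called without sham animal 43, and by 0.34 ± 0.21 in IPC+IPO. IRI and sham differed by -0.05 ± 0.21.

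Des gave no such differences as deposited. It ran from 5.35 to 6.49 over the 48 livers, its group means lay between 5.60 in IPO and 5.79 in sham and IRI, and its differences in the same 7 comparisons ran from -0.19 to 0.00, none called. With array weights Des was called against sham in IPC, IPO and IPC+IPO (limma adjusted p = 0.0147, 0.0111 and 0.0485). That setting called 7051, 9749 and 9007 of all genes there. The highest Des value, 6.49 in IPC animal 11, stood apart from the other IPC livers.

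Reln encodes reelin, a secreted glycoprotein first known from the brain, which stellate cells make in the liver. It lies on chromosome 4 from 13628440 to 14055201 (probe set 10853020). Its lowest, median and highest values were 6.66, 6.82 and 7.61 in sham and 6.12, 6.61 and 7.32 in IRI, where 5 of 10 animals lay below all sham animals. IRI differed from sham by -0.31 ± 0.18 (limma adjusted p = 0.523), and by -0.21 without sham animal 43, which had the highest sham value. IPC, IPO and IPC+IPO differed from IRI by 0.34, 0.34 and 0.33, each ± 0.17, and from sham by 0.04, 0.04 and 0.02, each ± 0.18, none called. The IPO value against IRI was called without IRI animal 1 (adjusted p = 0.0425), as 1 of 5345 genes. Of the 3 genes listed for the reelin signal, the receptors Vldlr and Lrp8 and the adaptor Dab1, 2 were measured and neither was called in any comparison. Dab1 differed between IPC and sham by 0.28 ± 0.13 (adjusted p = 0.186).

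Lrat encodes lecithin retinol acyltransferase, the enzyme that makes the retinyl esters of stellate cell lipid droplets. It lies on GRCr8 chromosome 2 from 170562148 to 170571212 (probe set 10823949). Lrat ran from 6.21 to 7.40 in sham, with a median of 6.87, and from 5.52 to 8.02 in IRI, with a median of 7.28. Its lowest, median and highest values were 6.60, 7.18 and 7.84 in IPC. They were 6.90, 7.55 and 7.92 in IPO and 5.92, 7.46 and 7.81 with both interventions. Of the 10 IPO animals, 6 lay above every sham animal, and 5 IRI animals did. The lowest values in IRI and IPC+IPO were those of animals 7 and 38, the arrays of lowest spread.

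Lrat rose in IPO against sham by 0.67 ± 0.24 (SE; 95% interval 0.18 to 1.15), 1.59-fold, with a limma adjusted p of 0.0402. With Pdgfrb it was 1 of 2 markers called there, both higher, where 23.2% of all genes were called, and the markers' share was close to that background. Once spread was a covariate the difference was 0.05 ± 0.19 (adjusted p = 0.957), and 0% of all genes were called. Over 9 settings the adjusted p ran from 4.24e-05 to 1, with no call under renewed quantile normalization (0.177) or without the 14 arrays of lowest spread (1). The call held in 4 of 18 fits without 1 array, and was lost without IPO animal 21, 22, 23, 24, 25, 26, 27 or 28 or sham animal 41, 42, 44, 45, 46 or 47. Against sham, Lrat differed by 0.39 ± 0.24 in IRI, 0.36 ± 0.24 in IPC and 0.42 ± 0.24 in IPC+IPO, and against IRI by -0.03, 0.28 and 0.03, each ± 0.23, in IPC, IPO and IPC+IPO. None of these was called.

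**Figure D2:**
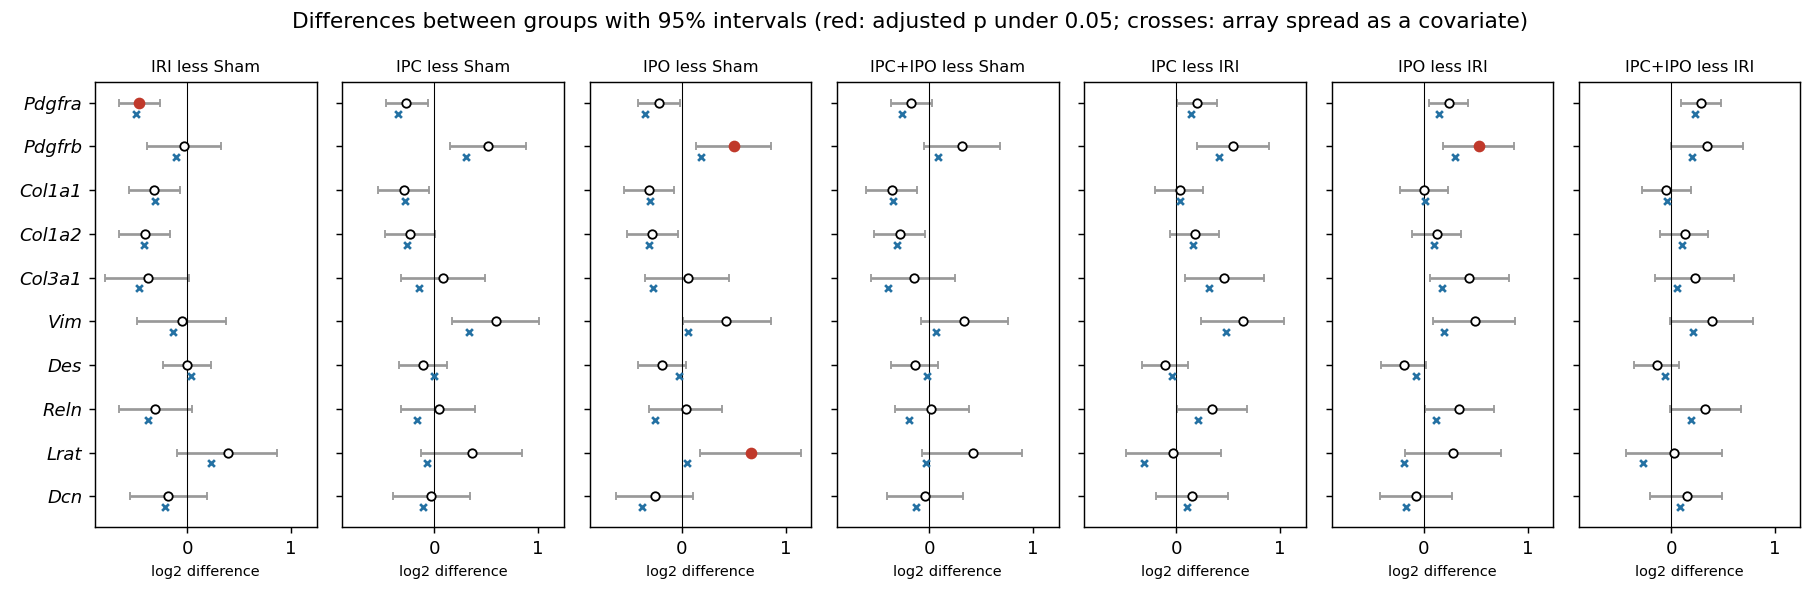
Log2 difference (x axis) of each marker gene (y axis) in 7 comparisons, as circles with 95% intervals from limma; filled red circles passed an adjusted p of 0.05, and blue crosses are the differences with array spread as a covariate. Red circles are Pdgfra in IRI less sham, Pdgfrb and Lrat in IPO less sham, and Pdgfrb in IPO less IRI; the cross of Lrat in IPO less sham sits at 0.05 against 0.67 for its circle.

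Over the 10 genes the median difference of IRI from sham was -0.24, against 0.029 over all genes, with 8 genes below 0. The IPC, IPO and IPC+IPO medians were 0.00, -0.08 and -0.09 against sham and 0.19, 0.26 and 0.19 against IRI, where 8 of 10 genes were above 0 each time. The corresponding medians over all genes ran from -0.040 to 0.014. Comparisons with the same sham or IRI livers are not independent of each other. With spread as a covariate the marker medians were -0.26, -0.13, -0.27 and -0.16 against sham and 0.15, 0.11 and 0.10 against IRI. No marker was called in IPC against sham (6.58% of all genes were called; 4 markers at an unadjusted p under 0.05 in limma) or in IPC+IPO against sham (3.62% of all genes; 2 markers).

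None of the 10 was called in IPC+IPO against IRI, where 0% of all genes were called, with 2 markers and 3118 genes at an unadjusted p under 0.05 in limma. Without IPC+IPO animal 38 Pdgfra was called there (0.35, adjusted p = 0.0230), as 1 of 1705 genes. Between the conditioned groups no marker was called in IPO against IPC, in IPC+IPO against IPC or in IPC+IPO against IPO, where 0% of all genes were called each time. No marker and 589, 235 and 482 genes had an unadjusted p under 0.05. The largest such marker difference was 0.31 ± 0.23, for Lrat between IPO and IPC (95% interval -0.15 to 0.77), so differences of this size are not settled by these arrays.

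The interaction asked whether preconditioning had another effect in postconditioned than in other ischemic livers. It was -0.74 ± 0.28 for Vim, -0.73 ± 0.24 for Pdgfrb and -0.68 ± 0.27 for Col3a1, the 3 markers with an unadjusted p under 0.05. No marker was called (lowest limma adjusted p = 0.205, for Pdgfrb), 0% of all genes were called, and 2942 genes had an unadjusted p under 0.05. The F test over the 5 groups called Pdgfra (adjusted p = 0.0186) and Pdgfrb (0.0349), 2 of 10 markers, where 14.4% of all genes were called. Given spread as a covariate, the F test called Pdgfra (0.0212) and not Pdgfrb (0.427), where 1.34% of all genes were called.

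The relation of each gene to array spread was taken over the 48 livers after group means were removed. It was strongest for Lrat (Pearson r = 0.71, Spearman rho = 0.62; permutation p = 1e-05 for r, the smallest these permutations can give, and 3e-05 for rho). Leaving out the 2 arrays of most extreme spread gave r = 0.57 for Lrat. It was 0.50 for Vim, 0.48 for Pdgfrb, 0.47 for Reln and Col3a1, -0.41 for Des and 0.37 for Pdgfra, each with a permutation p adjusted over 10 genes under 0.05. Those of Pdgfra and Col3a1 were 0.12 and 0.20 without those 2 arrays and rest on them. Dcn (0.19), Col1a2 (0.08) and Col1a1 (-0.03) showed no called relation.

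**Figure D3:**
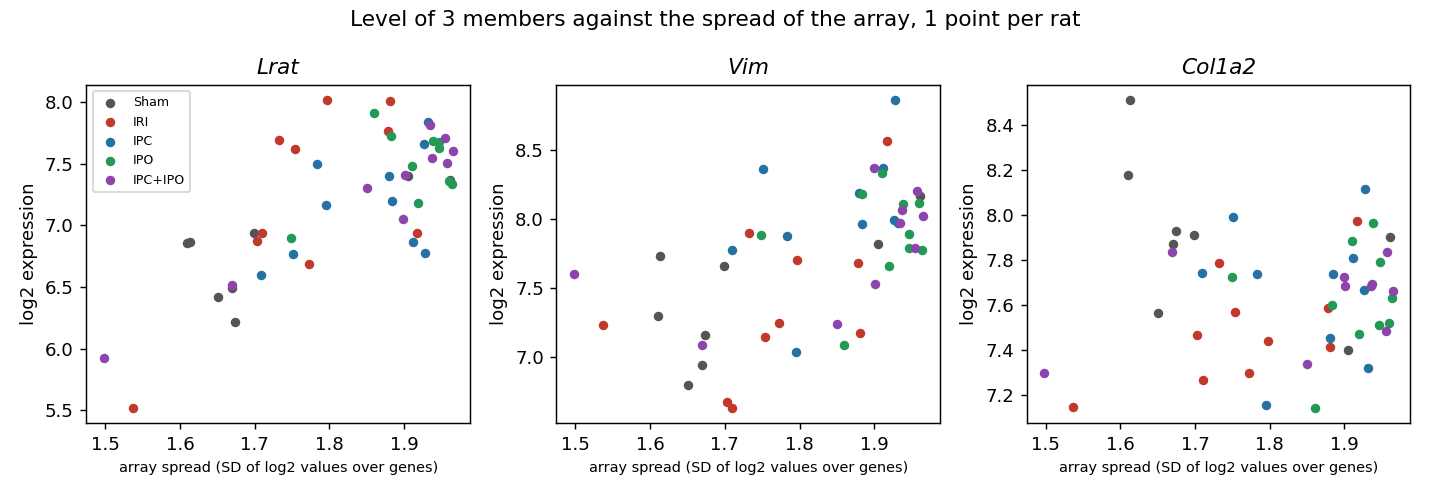
Log2 expression (y axis) of Lrat, Vim and Col1a2 against array spread (x axis, log2 units), 1 point for each rat, coloured by group. Lrat climbs with spread (r = 0.71 within groups), Vim less so (0.50), and Col1a2 does not (0.08).

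From rat to rat within groups, most of the matrix and receptor genes varied together. Of the 45 pairs of genes, 22 had a Pearson correlation with a permutation p adjusted over the 45 pairs under 0.05, all of them above 0. By Spearman correlation 23 pairs passed. The share of other gene pairs that would pass was not tested, so 22 of 45 has no background beside it. The strongest pair was Col1a2 with Col3a1 (r = 0.81, rho = 0.81), followed by Col3a1 with Reln (0.79, rho = 0.74), the type I collagen chains Col1a1 and Col1a2 (0.77, rho = 0.70), Pdgfrb with Reln (0.73, rho = 0.71) and Pdgfra with Col3a1 (0.71, rho = 0.63), each with permutation p = 1e-05 and an adjusted p of 4.5e-05. Leaving out the 2 arrays most extreme for the first gene, these were 0.79, 0.77, 0.70, 0.65 and 0.64.

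Most of these pairs also passed with spread taken out. With each gene's slope on spread removed, 22 pairs passed, 19 of which had passed before, and Col1a2 with Col3a1 was then at 0.88. As deposited, Des passed with 0 of its 9 partners and Lrat with 1, Pdgfra (r = 0.37, adjusted p = 0.0322), a pair that did not pass once spread was removed (0.15). With spread removed, Des passed with Dcn (r = 0.38, adjusted p = 0.0369; as deposited 0.27), and Lrat passed with Reln in the negative direction (r = -0.34, adjusted p = 0.0369). As deposited, Dcn passed with Vim (0.44) and Col3a1 (0.35). With spread removed, the pair with Vim still passed (0.41) and the pair with Col3a1 did not (0.30, adjusted permutation p = 0.0739).

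**Figure D4:**
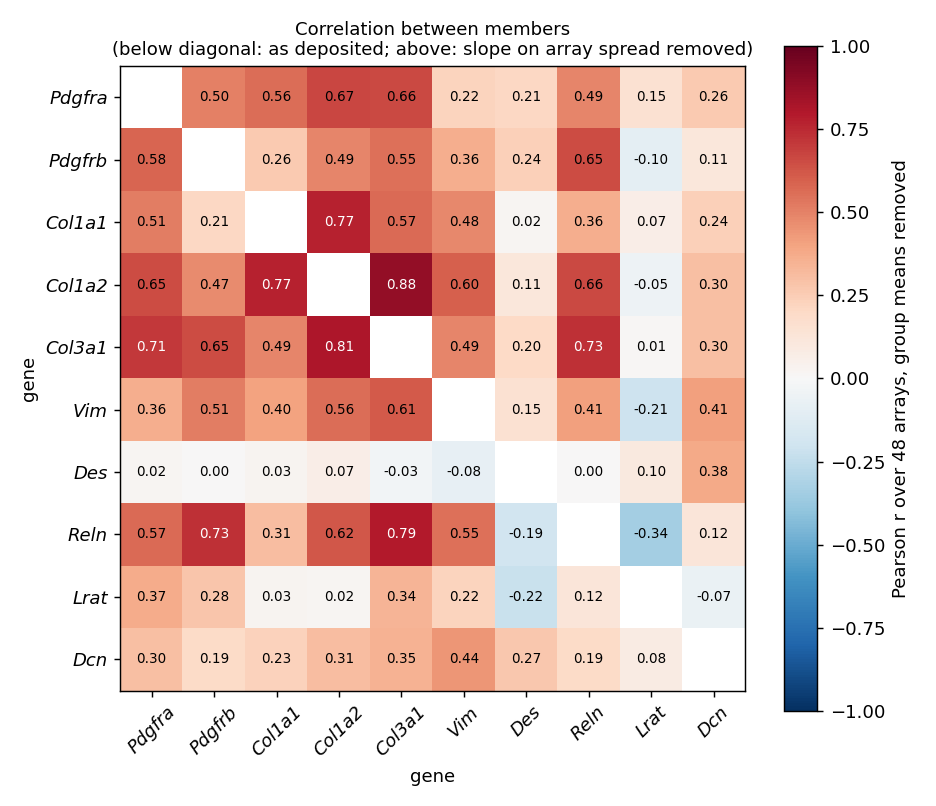
Pearson correlation between the 10 marker genes over 48 rats after group means were removed, as deposited below the diagonal and with the slope on array spread removed above it; both axes list the genes and colour runs from -1 to 1. Collagens, receptors, Vim and Reln form a block of positive values from 0.21 to 0.81 below the diagonal. The cells of Des there run from -0.22 to 0.27, and those of Lrat from -0.22 to 0.37.

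Genes of like pattern were ranked over the 48 arrays by their correlation once group means and the slope on spread were removed. The 5 highest other genes are named, with LOC and RGD symbols of predicted loci skipped. For Col3a1 these were Col14a1 (r = 0.90), a fibril-associated collagen, Psap (0.87), Acox3 and Itih1 (0.84 each) and Actn4 (0.83). For Pdgfra they were Tbx20 (0.68), Col14a1 (0.66), Psap, Smoc1 and Aagab (0.65 each). For Vim they were Rab35 (0.75), Fads1 and Krt18 (0.71 each), Icam1 (0.70) and Rangap1 (0.69). Before the slope was removed these correlations lay between 0.67 and 0.92. Those with Col3a1 were then 0.90 for Psap and 0.87 each for Acox3, Itih1 and Actn4, beside 0.81 for the marker Col1a2. With the slope removed Col1a2 stood at 0.88. Close correlation from rat to rat was thus not particular to the markers. The genes named here were picked as the highest, so they give no share over all genes.

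Other genes of the same cells and pathways were counted from lists. Of 19 further stellate cell genes, 15 were measured. None was called in IRI against sham (median -0.08). In IPO against IRI 3 rose and none fell, 20% of the list where 22.8% of all genes were called, namely Acta2 (0.52 ± 0.17, adjusted p = 0.0277), the smooth muscle actin of activated stellate cells and vessel walls, Steap4 (0.44) and Bmp5 (0.35), while the median was -0.01. Acta2 also rose against sham in IPC (0.57 ± 0.18) and in IPO (0.55 ± 0.18), and Hand2 fell in IPO against sham by 0.36. These calls were 6.67% of the list in IPC and 13.3% in IPO, beside 6.58% and 23.2% of all genes. With spread as a covariate Acta2 was not called in these comparisons (0.27, 0.34 and 0.23), nor were Steap4 (0.14), Bmp5 (0.14) or Hand2 (-0.12). In that fit 1 gene of the list, Cygb, the cytoglobin of stellate cells, fell in IRI against sham (-0.42 ± 0.10, adjusted p = 0.0125; as deposited -0.35 and not called) and in IPC against sham (-0.42 ± 0.11, adjusted p = 0.0260). List genes called only in the fit with spread, here and below, were picked out after their values were seen.

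Of 40 other matrix genes, 34 were measured. None was called in IRI against sham (median -0.12), where the smallest p was that of Mgp, matrix Gla protein, an inhibitor of calcification (-0.68 ± 0.18, adjusted p = 0.0667; with spread as a covariate -0.72, adjusted p = 0.00919). Mgp fell in IPO against sham by 0.46 (adjusted p = 0.0483). In the fit with spread Timp2, an inhibitor of matrix proteases, was called in IRI against sham as well (-0.42 ± 0.10, adjusted p = 0.0129). Mgp and Timp2 were the 2 of 34 list genes called there, where 5.89% of all genes were called. In IPO against IRI 2 rose and none fell, 5.88% of the list where 22.8% of all genes were called, namely the membrane collagenase Mmp14 (0.65) and the proteoglycan Bgn (0.64), with a median of 0.12. Against sham, 5.88% of the list was called in IPO and 2.94% in IPC, beside 23.2% and 6.58% of all genes. Serpinh1, the collagen chaperone, rose in IPO against sham (0.59) and the protease Adamts1 rose in IPC against sham (0.68). Once spread was a covariate none of these 5 was called, and 0% of all genes were in IPO against sham. The values were then -0.63 for Mgp, 0.30 for Mmp14, 0.27 for Bgn, 0.20 for Serpinh1 and 0.56 for Adamts1 (adjusted p = 0.0981), so that Mgp was further from 0 than as deposited.

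Of 21 genes of PDGF and transforming growth factor beta signalling, 17 were measured and none was called in IRI against sham. There the fit with spread called 1 of the 17, Pdgfb, higher (0.27 ± 0.08, adjusted p = 0.0402), beside 5.89% of all genes. In IPO, 17.6% of the list was called against IRI and 17.6% against sham, beside 22.8% and 23.2% of all genes. Against sham, 11.8% was called in IPC and 5.88% in IPC+IPO, beside 6.58% and 3.62% of all genes. Ccn1, an early-response matricellular protein, rose against sham in IPC (1.25 ± 0.29, adjusted p = 0.00818), IPO (1.39 ± 0.29, adjusted p = 0.00304) and IPC+IPO (1.12 ± 0.29, adjusted p = 0.0260), and in IPO against IRI (0.87 ± 0.27, adjusted p = 0.0246). Given spread as a covariate, Ccn1 was called in the first (1.06, adjusted p = 0.0444), where 1.9% of all genes were called. In the other 3 it was not called, at 1.11, 0.92 and 0.66 (adjusted p = 0.179, 0.138 and 0.395). The ligand Pdgfb fell in IPO against IRI by 0.43, and Bambi, a decoy receptor for transforming growth factor beta, rose there by 0.45. The ligand Pdgfd fell against sham in IPC by 0.27 and in IPO by 0.23, and Smad4 rose in IPO against sham by 0.59. With spread as a covariate none of these last 4 genes was called in those comparisons, with -0.22 for Pdgfb, 0.27 for Bambi, -0.15 and -0.06 for Pdgfd and -0.04 for Smad4.

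Of 18 genes of retinoid and lipid droplet handling, 17 were measured. Against sham, 2 rose in IPC and 7 rose and 1 fell in IPO, with medians of 0.20 and 0.25. These were 11.8% and 47.1% of the list, beside 6.58% and 23.2% of all genes. Those of smallest p in IPO were Plin2, a lipid droplet coat protein (1.08 ± 0.27), Rara, a retinoic acid receptor (0.45), Dhrs3, a retinal reductase (0.85), and Rdh10, a retinol dehydrogenase (0.67). Plin2 and Dhrs3 were the ones that rose in IPC (1.18 and 0.78). In IPO against IRI Plin2 (1.08), Ces1d (0.57) and Rdh10 (0.52) rose and Aldh1a2, which makes retinoic acid, fell by 0.37, which is 23.5% of the list beside 22.8% of all genes. None of the 17 was called once spread was a covariate. Rdh10 then stood at -0.01 against sham and 0.00 against IRI in IPO. Plin2 kept more of its difference, at 0.86 in IPC and 0.62 in IPO against sham and 0.73 in IPO against IRI (adjusted p = 0.0581, 0.412 and 0.280).

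Markers of other cells were set beside these values. In IRI against sham, 7 measured red cell and platelet genes of 10 had a median difference of 0.60, none called, and their mean per array ran from 7.52 to 8.69 in sham and from 7.78 to 9.07 in IRI. In the same comparison the medians were -0.05 for 8 hepatocyte genes, -0.16 for 7 of 10 endothelial genes, -0.07 for 7 of 8 Kupffer cell genes, 0.05 for 5 of 6 bile duct genes, 0.09 for 8 neutrophil genes, 0.11 for 6 of 8 lymphocyte genes and -0.02 for 12 of 13 genes of smooth muscle, portal fibroblasts and mesothelium, none called. With spread as a covariate, which calls 5.89% of all genes there, 1 red cell gene was called higher, Hba-a3 (0.90 ± 0.27, adjusted p = 0.0416). In that fit 1 Kupffer cell gene, Cd163 (-0.63 ± 0.16, adjusted p = 0.0176), and 1 hepatocyte gene, Cps1 (-0.46 ± 0.15, adjusted p = 0.0470), were called lower. The mean of the 10 stellate and mesenchymal genes ran from 6.61 to 7.32 in sham and from 6.46 to 7.13 in IRI. The part of these cells in the fall of Pdgfra was not tested.

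In IPO against IRI, where Pdgfrb rose, Kupffer cell genes had a median of 0.34 with 2 of 7 called higher (Cd5l and Cd68), 28.6% beside 22.8% of all genes, and their mean per array ran from 6.58 to 8.00 in IRI and from 6.89 to 8.33 in IPO. Endothelial genes had a median of 0.31 with Eng called higher, 1 of 7 or 14.3%, from 6.55 to 7.53 in IRI and from 7.07 to 7.66 in IPO. Hepatocyte genes had a median of 0.13, with Tat called higher and Apoa1 lower (25% of the list). Of the smooth muscle, portal and mesothelial genes Entpd2 and Thy1 were called lower (16.7% of the list). Of the neutrophil genes Elane and Ngp were called lower (25%), and of the red cell genes Hbb was (14.3%). With spread as a covariate none of these was called, and 2 of all 14506 genes were. In that fit Hbb (-0.66), Entpd2 (-0.30) and Apoa1 (-0.22) stayed near their values as deposited (-0.67, -0.30 and -0.21). The other 7 ran from -0.21 for Elane to 0.46 for Tat. Their part in the rise of Pdgfrb was not tested.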

How the data were processed

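Liver RNA of 48 rats was measured on Affymetrix arrays. The authors deposited 1 log2 value for each probe set and array, made with RMA in Affymetrix Expression Console, per the submitters' processing notes; the version and any batch are not given in the sources used here. RMA corrects background, normalizes quantiles and summarises probes, so differences are relative to the other genes of an array. Of 29215 probe sets, 15310 had 1 symbol in the platform annotation, 323 had several and 13582 had none here; the last 2 kinds were not used. Symbols were updated through gene IDs to RefSeq, and for each of 14506 genes the probe set of highest mean was taken, with no filter on dim genes.

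Groups came from the sample titles. All 5 groups entered 1 fit without covariates with limma 3.58.1 in R 4.3.3 (lmFit, eBayes; 43 residual degrees of freedom, two-sided). Benjamini-Hochberg adjustment ran over all genes of a comparison, with a threshold of 0.05. The 10 pairwise comparisons, the interaction and an F test were run. Correlations used 100000 permutations within groups in Python 3.11.15 with numpy. The fit was tested on simulated data.

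The members, lists and alternatives were chosen with earlier results of these data known, array spread among them. The text names every member, and from other lists at most 4 called genes of smallest p per list and comparison, or the gene of smallest p. Other settings tried were a fit of the compared groups alone; array weights; a variance model with trend and robust options; a fit without the genes of lowest mean; the most variable probe set in place of the highest; centring each array on its median; quantile normalization done again; spread as a covariate; dropping the 14 arrays whose spread was lowest; a 1.5-fold minimum; and dropping each array in turn.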

Additional observations from a re-analysis of the deposited data

Results flagged for a closer look

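In 5 of 50 groups of values (10 genes in 5 groups), 1 animal stood farther from the rest of its group than Dixon's 95% limit; chance flags about 1 in 20 groups. The lowest Pdgfra value in IPC+IPO was 5.83, in animal 38, and the lowest Lrat value in IRI was 5.52, in animal 7. These are the arrays of lowest spread of the whole series, 1.5 and 1.54. The highest Reln value in sham was 7.61 and the highest Dcn value in sham was 6.83, both in animal 43. The highest Des value in IPC was 6.49, in animal 11. Without animal 38 the difference of IPC+IPO from IRI in Pdgfra was 0.35 in place of 0.29. Without animal 7 the difference of IRI from sham in Lrat was 0.57 in place of 0.39, and without sham animal 43 that in Reln was -0.21 in place of -0.31. No cause of these values was tested.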

How the results depend on the processing

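No paired analysis was possible because no rat number occurs in more than 1 group. Among the 10 markers, the number called in IRI against sham was 1, and it was 0 with only these groups in the fit, with median centring, without the 14 arrays of lowest spread and with a 1.5-fold minimum, 2 with renewed quantile normalization and with spread as a covariate, 3 with array weights, and 0 to 2 without 1 array. In IPO against IRI it was 1, and it was 0 with renewed quantile normalization, spread as a covariate, without the 14 arrays and with a 1.5-fold minimum, 2 with median centring, 5 with array weights and 0 to 5 without 1 array. In IPO against sham it was 2, and it was 0 with spread as a covariate and without the 14 arrays, 1 with a 1.5-fold minimum (Lrat), 3 with renewed quantile normalization (Pdgfra, Col1a1 and Col1a2, with neither Pdgfrb nor Lrat), 3 without the genes of lowest mean (Pdgfrb, Col1a1 and Lrat), 7 with array weights and 0 to 5 without 1 array. In IPC against sham it was 0, against 1 with spread as a covariate, 3 with renewed quantile normalization, 6 with array weights and 0 to 3 without 1 array. In IPC+IPO against sham it was 0, against 2 with renewed quantile normalization, 5 with array weights and 0 to 2 without 1 array. In IPC against IRI it was 0, and 1 with array weights and 0 to 1 without 1 array; in IPC+IPO against IRI it was 0, and 5 with array weights and 0 to 1 without 1 array. The F test called 2, and 3 with renewed quantile normalization (Pdgfra, Col1a1 and Col1a2), with median centring and without the genes of lowest mean (Pdgfra, Pdgfrb and Vim in both), 1 with spread as a covariate, 0 without the 14 arrays, 7 with array weights and 1 to 4 without 1 array. Array weights raised the calls over all 14506 genes as well, from 3364 to 9749 in IPO against sham. With them 7051 genes were called in IPC, 9007 in IPC+IPO and 1894 in IRI against sham. Against IRI they gave 6098 in IPO and 4484 in IPC+IPO. Renewed quantile normalization called fewer genes than the fit as deposited in each conditioned group against sham, and more in IRI against sham. Whether the markers' share differed from that of all genes was not tested. Leaving out the 14 arrays keeps 2 of 8 sham arrays. The correlation of Reln with Lrat turned from 0.12 to -0.34 (adjusted p = 0.0369) once the slope on spread was removed. No called difference of a marker changed sign under any alternative run. The causes of these changes were not tested.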
